A study of Rattus norvegicus with 31 samples.

Results

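Kidney cortex and colon of control rats were compared gene by gene in 10 of the 31 libraries of the series, 5 of cortex and 5 of colon. All 10 carry the label NC, the normal control group, with no treatment named, and they were chosen by that label and by tissue, without use of any measured value. The other libraries, from a high-salt group (HS, 4 of cortex and 5 of colon) and a high-salt group given calcitriol (CAL, 6 and 6), served here only to see whether the tissue difference recurred. Strain, sex, age and diet of the rats, and whether a cortex and a colon sample with the same number came from 1 rat, are not given in the sources used here. Nothing in the labels says whether replicates were separate animals, so each p measures the spread between these samples, which may be technical. The cortex libraries held 513294 to 1239310 counts over 11753 to 12593 genes. The colon libraries held 375193 to 764013 counts over 12299 to 13776 genes. Colon replicates 1 and 4 stood apart by low counts of smooth muscle genes. Replicate 1 also stood apart by high counts of B cell and T cell genes, as described below. Without replicates 1 and 4, an alternative chosen after seeing the data, 2423 genes were higher in cortex and 2522 in colon, beside 2415 and 2506 with them.

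The renal cortex holds the glomeruli, where blood is filtered, and most of the proximal tubule, which takes back sugar, amino acids, phosphate and bicarbonate from the filtrate and makes glucose and ammonium. Thick ascending limb, distal tubule and collecting duct then recover salt and calcium and set the final volume of the urine. The colon is lined by absorptive colonocytes and by goblet cells that secrete the mucus separating the epithelium from bacteria, and it recovers the last salt and water from the gut contents. Its wall also holds smooth muscle, nerves, fibroblasts and many immune cells. In whole tissue, fewer cells of a type and less RNA per cell cannot be told apart.

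The 2 tissues differed at most of the genes that had enough counts to be tested. In all, 16528 genes had counts in the control libraries. Of 7398 genes that passed the filter on low counts, 4921 (66.5%) differed by the edgeR quasi-likelihood test at a Benjamini-Hochberg adjusted p under 0.05. These were 2415 higher in cortex (32.6%) and 2506 higher in colon (33.9%). At an unadjusted p under 0.05 there were 5140 (69.5%), and DESeq2 gave 2399 and 2375. The libraries of one tissue all lay above those of the other for 3828 genes (51.7%). Differences over 2-fold were nearly balanced, with 1593 genes higher in cortex (21.5%) and 1644 in colon (22.2%). Above 8-fold the fitted differences leaned to the cortex, with 560 genes (7.57%) against 453 (6.12%). Above 32-fold there were 279 (3.77%) against 205 (2.77%), and above 128-fold 132 (1.78%) against 119 (1.61%). Of the tested genes, 32 counted in cortex alone and 66 counted in colon alone had 0 counts in the other tissue. Their counts give only a lower bound on the fold, so the numbers above the larger folds are uncertain. The median log2 difference over all tested genes, cortex minus colon throughout, was -0.02, and the median size of the difference was 0.84. Levels are counts per 1e6 counts after trimmed-mean (TMM) scaling, called CPM below.

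**Figure D1:**
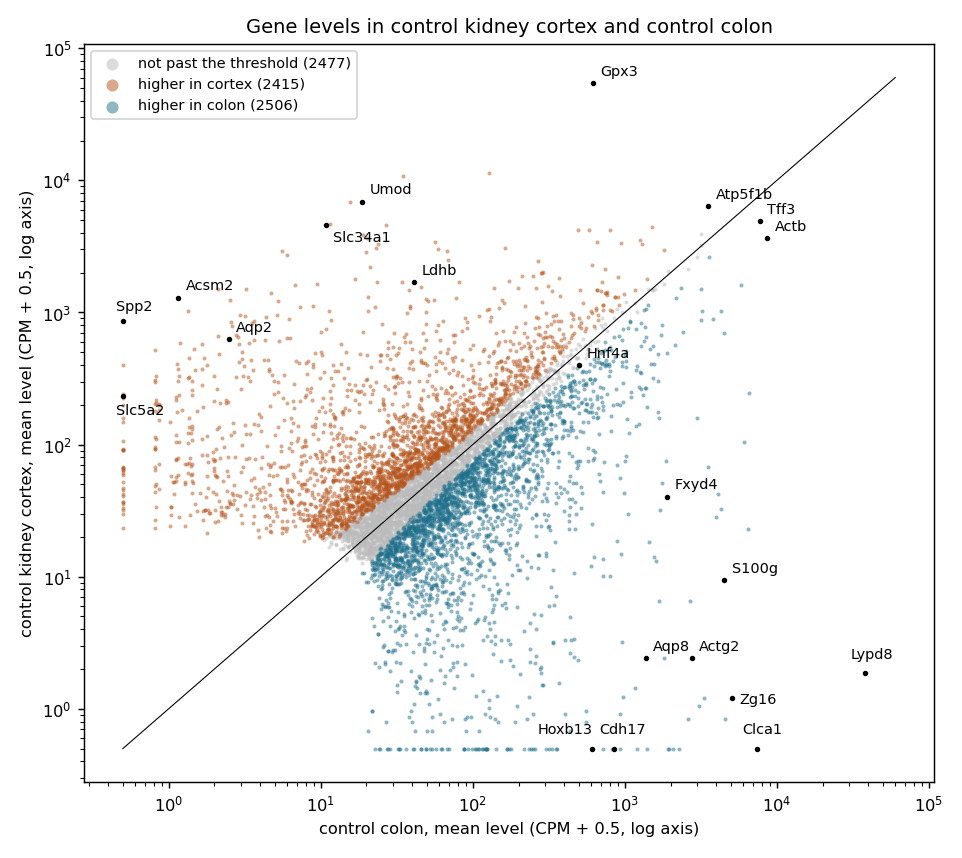
Mean level of each of the 7398 tested genes in 5 control colon libraries (horizontal axis) and 5 control cortex libraries (vertical axis), both as CPM + 0.5 on log axes; orange and blue points are the 2415 and 2506 genes higher in cortex and in colon, grey points are not past the threshold, and the line marks equal levels. Genes with 0 counts in one tissue lie along the left and lower edges, and Tff3, Actb and Atp5f1b lie near the line at high levels in both tissues.

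Counts in the cortex were led by 1 gene. Gpx3, the secreted glutathione peroxidase that the proximal tubule supplies to plasma, held 5.13 ± 0.874% of cortex counts (SD, n = 5) and 0.0606% of colon counts. Its level was 49471, 63752, 41356, 53035 and 65744 CPM in cortex replicates 1 to 5 and 390.0, 768, 445, 731 and 749 CPM in colon replicates 1 to 5. Every cortex library lay above every colon library, and the log2 difference was 6.47 (SE 0.28, adjusted p = 2.61e-13). Since transcript lengths were not used, the order of genes here is an order of counts and not of molecules.

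Behind Gpx3 came enzymes of tubular metabolism. Hao2, a peroxisomal hydroxyacid oxidase, held 1.01 ± 0.0621% of cortex counts. Cyp4a2, which hydroxylates arachidonic acid, held 0.645 ± 0.0413%, and Miox, the first enzyme of inositol breakdown, held 0.437 ± 0.0233%. Glul, glutamine synthetase, held 0.419 ± 0.0590%, Akr1a1, an aldehyde reductase, held 0.393 ± 0.0253%, and Fbp1, an enzyme of glucose synthesis, held 0.365 ± 0.0292%. Of colon counts, Hao2, Cyp4a2, Miox and Fbp1 held 0.00333%, 0.00146%, 0.00107% and 0.00182%. Glul and Akr1a1 were also plentiful in colon, at 1508 and 794 CPM, and their log2 differences were 1.56 and 2.40. Reads of Cyp4a2 and of its near-identical relatives could be split or shared by the counting, so its exact level is uncertain.

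Other leading cortex transcripts came from named segments. Umod, uromodulin, the main protein of normal urine and a product of the thick ascending limb, held 0.649 ± 0.152% of counts, at 6733, 5686, 9201, 7393 and 5428 CPM in the 5 cortex libraries. The colon libraries stood at 32.4, 40.4, 2.65, 2.59 and 13.1 CPM, and the log2 difference was 8.52 (SE 0.43, adjusted p = 2.85e-12). Slc34a1, the sodium phosphate cotransporter of the proximal tubule, held 0.429 ± 0.0557%, and Kap, the androgen-regulated kidney protein of rodents, held 0.432 ± 0.120%. Kap ranged from 3508 to 6565 CPM in cortex and from 6.47 to 59.1 CPM in colon. The haemoglobin genes Hba-a1 and Hbb were also among the 15 with most counts, at 0.398 ± 0.270% and 0.397 ± 0.260%, and varied more between cortex libraries than any other gene of that group by SD relative to the mean.

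Colon counts were likewise led by 1 gene. Lypd8, a secreted protein of the colonic epithelium that binds flagellated bacteria and keeps them from the mucosa, held 3.74 ± 0.171% of colon counts. Its level was 39917, 38032, 35164, 35881 and 41561 CPM in the colon libraries and 1.46, 1.75, 1.86, 0 and 1.71 CPM in the cortex libraries. The log2 difference was -14.50 (SE 0.32, adjusted p = 1.97e-16), on 5 cortex counts in all.

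Mucus and epithelial surface genes followed. Clca1, a metalloprotease of goblet cell mucus, held 0.725 ± 0.154% and had no count in any cortex library. Zg16, a lectin of the mucus layer that binds Gram-positive bacteria, held 0.498 ± 0.222%, and Itln1, an intelectin that binds microbial sugars, held 0.448 ± 0.207%. Guca2a, guanylin, which drives fluid and chloride secretion, held 0.637 ± 0.109%, and Krt8, a keratin of simple epithelia, held 0.648 ± 0.0566%. Zg16 had 2 counts in cortex, a ratio of 8420.3-fold (95% counting interval 2331 to 69536), and Itln1 had 1, a ratio of 16009-fold (95% counting interval 2873 to 632364). These intervals cover counting error only. Guca2a stood at 6492 ± 1152 CPM in colon and 22.5 ± 5.34 CPM in cortex (n = 5 each), a log2 difference of -8.13.

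Calcium-binding, cytoskeletal and redox genes made up the rest of the leading colon transcripts. S100a6 held 0.594 ± 0.148%, S100g (calbindin-D9k, the vitamin D-dependent calcium carrier of intestine) 0.446 ± 0.347%, the actin-binding peptide Tmsb4x 0.570 ± 0.174% and the actin gene Actb 0.848 ± 0.0396%. Thioredoxin (Txn1) held 0.441 ± 0.301%, B2m, the light chain of class I histocompatibility molecules, 0.421 ± 0.0452%, the tetraspanin Tspan1 0.420 ± 0.0710% and the LIM protein Crip1 0.403 ± 0.108%. S100g and Txn1 were the least even of the 15 by SD relative to the mean. S100g ran from 958 to 9861 CPM and Txn1 from 1615 to 9581 CPM among the 5 colon libraries.

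**Figure D2:**
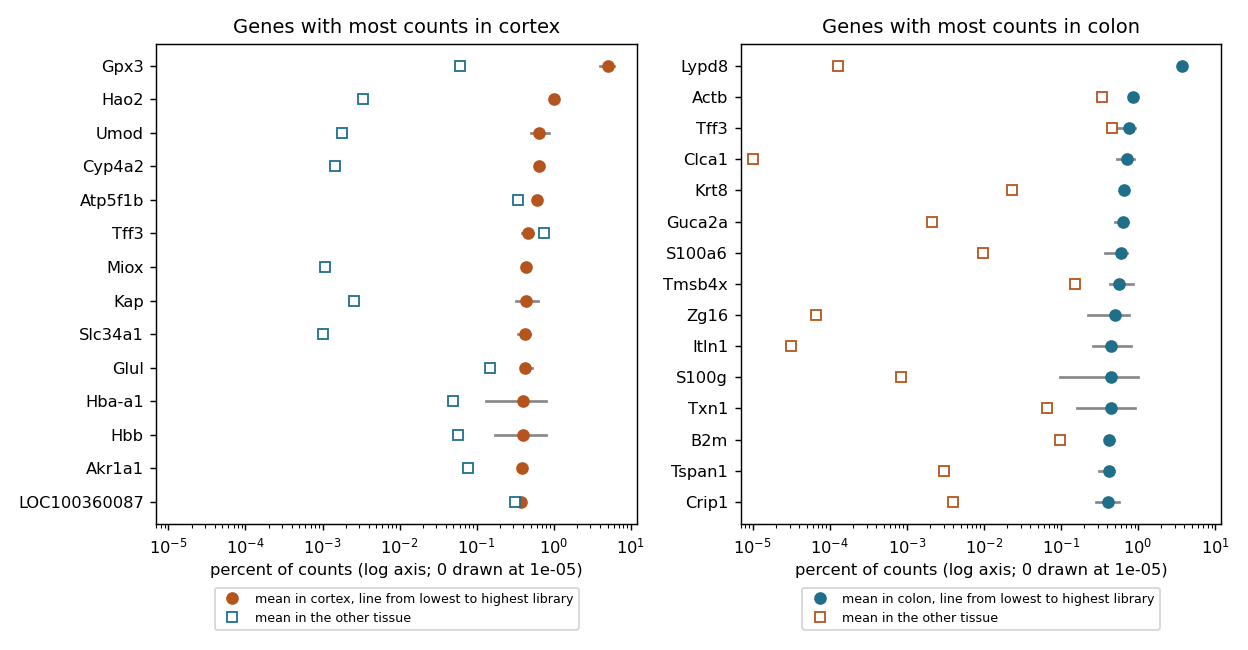
Leading genes by counts in control cortex (left, 14 of the first 15) and control colon (right, the first 15), as percent of library counts on log axes; filled circles are means of 5 libraries, grey lines run from the lowest to the highest library, and open squares are the mean in the other tissue. Gpx3 (5.13%) and Lypd8 (3.74%) stand apart from the genes below them, and Tff3 appears on both sides.

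Few leading genes were shared. Of the 10 genes with most counts, 1 was common to both tissues, and of the first 20, 50 and 100, 3, 10 and 24 were common. The shared gene of the first 10 was Tff3, a trefoil peptide that protects mucous epithelia. It stood at 4910.3, 4722, 5630.5, 4993 and 4172 CPM in cortex and 7308, 9346, 4730.3, 7462 and 9624 CPM in colon, so the groups overlapped, and the log2 difference was -0.66 (SE 0.18, adjusted p = 0.00406). Atp5f1b, the catalytic beta subunit of mitochondrial ATP synthase, was 0.86 higher in cortex on the log2 scale (SE 0.14), at 6405 ± 106 against 3539 ± 345 CPM. Actb was higher in colon, at 8641 ± 560.3 against 3635 ± 221 CPM (log2 difference -1.25, SE 0.14).

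How concentrated the libraries were differed only slightly. The 10 genes with most counts in a library held 11.2 ± 0.565% of counts in cortex and 9.90 ± 0.840% in colon (n = 5 each), a difference of 1.26 percentage points with an adjusted p of 0.0317 by exact two-sided permutation over 3 such tests. It missed the threshold without cortex replicate 2 or 5 or without colon replicate 2, 3, 4 or 5 (each adjusted p = 0.0635, exact permutation). With 100 genes the shares were 28.8 and 27.8%, and the adjusted p was 0.151 by exact permutation. After thinning every library to 375193 counts, 11266 ± 130 genes were detected in cortex and 12029 ± 646 in colon (adjusted p = 0.0238, exact permutation). The groups overlapped, at 11082 to 11428 in cortex and 11718, 12691, 12759, 11391 and 11587 in colon replicates 1 to 5. The smallest unadjusted p that 5 against 5 samples allow is 0.00794.

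A set of genes was counted in 1 tissue alone. In cortex 132 genes had counts in all 5 control libraries and 0 in all 5 control colon libraries, and 32 of them passed the low-count filter. A count of 0 in the colon libraries allows up to 1.01 CPM over the group, taking 3 counts as the limit, and each fold below is a bound against that limit. The bounds use counts summed over the 5 libraries, in which deeper libraries weigh more, so they differ somewhat from the ratio of a printed mean CPM to the limit. Spp2, a secreted phosphoprotein, led with 759.9, 864, 530.3, 928 and 1198 CPM, at least 845-fold higher in cortex. Spink1l, a trypsin inhibitor-like gene, stood at 401 ± 85.6 CPM (at least 416-fold) and Glyatl2, an acyltransferase, at 241 ± 55.6 CPM (at least 244-fold). Since related genes of both families share sequence, their exact levels are uncertain. Slc5a2 is SGLT2, the glucose cotransporter of the early proximal tubule and the target of gliflozin drugs. It stood at 163, 329, 162, 230.0 and 289 CPM, at least 245-fold higher in cortex.

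The next cortex-alone genes were mostly enzymes and carriers of the tubule. Aspdh, an aspartate dehydrogenase-like enzyme, stood at 224 ± 22.3 CPM, Slc16a4, a monocarboxylate transporter family member, at 200.2 ± 35.6 and Acmsd, which steers tryptophan breakdown away from NAD synthesis, at 158 ± 22.2. Iyd, the deiodinase that salvages iodide from iodotyrosines, stood at 147 ± 17.1 CPM, and Slc23a1, the vitamin C transporter, at 106 ± 18.04. Dhtkd1, a lysine and tryptophan catabolic enzyme, stood at 92.2 ± 15.1, Ak4, a mitochondrial adenylate kinase, at 90.2 ± 20.4 and Cyp4a1 at 89.9 ± 15.4 CPM. Atp6v0d2, a proton pump subunit of intercalated cells, stood at 67.5 ± 14.8 CPM, Slc5a11, an inositol cotransporter, at 66.2 ± 13.8 and Egf, the growth factor precursor made by thick ascending limb and distal tubule, at 66.3 ± 29.4. The bounds for these 11 genes ran from at least 59.9-fold for Egf to at least 219.5-fold for Aspdh.

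More genes were counted in colon alone. There 243 genes had counts in all 5 colon libraries and 0 in all 5 cortex libraries, where 3 counts over the group amount to 0.872 CPM, and 66 of them passed the filter. The bounds were made in the same way, from summed counts. Clca1 led with 7789.6, 6139.7, 5321, 8711 and 9000.1 CPM, at least 8724-fold higher in colon. Agr2, the disulphide isomerase that folds mucins, followed at 3365, 2016, 1980, 1451 and 2608 CPM, at least 2569-fold. Krt20, the keratin of differentiated surface epithelium, stood at 1962 ± 392 CPM (at least 2260.5-fold), and Slc26a3, the chloride bicarbonate exchanger whose loss causes congenital chloride diarrhoea, at 1907 ± 406 CPM (at least 2189.5-fold). Car1, the cytosolic carbonic anhydrase of colonocytes, was uneven, at 2317, 1307, 4595, 942 and 1186 CPM.

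Other colon-alone genes covered the brush border, mucus and position along the gut. Muc13, a membrane mucin, stood at 932 ± 53.0 CPM, Cdh17, the liver-intestine cadherin, at 846 ± 94.96 and Ms4a8, a membrane protein of the MS4A family, at 1203 ± 82.3. Prss32, a serine protease, stood at 1401 ± 237 CPM, Cyp3a9 at 716 ± 294, Ppp1r14d, a phosphatase inhibitor, at 355 ± 74.2, Abo3, a blood group glycosyltransferase, at 352 ± 167 and the calpain Capn13 at 332 ± 88.1. Cdh17, Muc13 and Ms4a8 were among the most even, with Cdh17 from 701 to 937 CPM, while Retnlb, a goblet cell protein that damages Gram-positive bacteria, ran from 411 to 2139 CPM. Hoxb13, the Hox gene of the hindgut, ran from 392 to 1006 CPM. Of the 15 genes, the lowest bound was at least 400.1-fold for Capn13.

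Part of these absences was met again in libraries of the other groups. Of the 132 cortex-alone genes, 63 had 0 counts in all 11 HS and CAL colon libraries, and of the 243 colon-alone genes, 124 had 0 counts in all 10 HS and CAL cortex libraries. The highest sum of a cortex-alone gene was 65 counts over the 5 HS colon libraries and 9 over the 6 CAL colon libraries, and that of a colon-alone gene 8 over the 4 HS and 9 over the 6 CAL cortex libraries. Among named genes, Slc23a1 had 18 and Slc5a11 12 counts in HS colon, while Aspdh, Atp6v0d2 and Egf had 0 in all 11 HS and CAL colon libraries.

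The windows upstream of these genes were searched for short motifs of factors known for these epithelia, because the genes share a tissue. HNF4 binds direct repeats that hold CAAAGTC, the CDX factors bind TTTATNG, where N is any base, and the CArG box is bound by serum response factor. Both strands were searched in RefSeq promoter windows of the GRCr8 assembly, 250 bases before to 50 after a start site. Of the cortex-alone genes 87 had a single window, and of the colon-alone genes 162. Shares are also given over the 5652 tested genes with a single window. CAAAGTC was in 13 of the 87 cortex windows (14.9%), in 7 of the 162 colon windows (4.32%), in 3.47% of windows of tested genes and in 4.61% of all 33469 windows. TTTATNG was in 23 of the 162 colon windows (14.2%), 9 of the 87 cortex windows (10.3%), 7.18% of windows of tested genes and 11.3% of all. It can overlap the TATA box (TATAAA), which was in 27 of the 162 (16.7%), 7 of the 87 (8.05%), 6.86% of windows of tested genes and 14.2% of all. The CArG box was in 2 of the 162 (1.23%), 1 of the 87 (1.15%), 1.29% of windows of tested genes and 1.64% of all. These shares are descriptions, and a match is not a site.

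The 250 bases upstream of the start, 5′ to 3′ on the strand of the gene, are shown for the genes of highest level in each set with such a match, to show where it lies, windows on chromosome 18 left out. Capitals mark the match. For cortex these are Aspdh at chr1:104094733-104094982 (plus strand, HNF4 core at -61 to -55 from the start) and Proz, a vitamin K-dependent plasma protein gene, at chr16:83165620-83165869 (minus strand, HNF4 core read from the opposite strand at -40 to -34 and at -23 to -17).
Aspdh: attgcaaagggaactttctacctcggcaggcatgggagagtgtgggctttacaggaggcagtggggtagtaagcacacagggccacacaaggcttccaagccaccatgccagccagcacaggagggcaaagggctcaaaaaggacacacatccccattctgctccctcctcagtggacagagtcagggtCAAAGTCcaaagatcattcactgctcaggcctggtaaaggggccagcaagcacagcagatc
Proz: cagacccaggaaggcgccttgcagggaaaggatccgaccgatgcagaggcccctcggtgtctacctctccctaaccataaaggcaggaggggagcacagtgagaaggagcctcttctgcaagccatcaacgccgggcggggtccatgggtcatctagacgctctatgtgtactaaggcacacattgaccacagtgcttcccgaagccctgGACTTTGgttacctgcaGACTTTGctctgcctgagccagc

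For colon they are Krt20 at chr10:84890286-84890535 (minus strand, CDX core read from the opposite strand at -50 to -44, where it overlaps a TATA box), Retnlb at chr11:65448320-65448569 (minus strand, CDX core at -94 to -88) and Aoc1, the diamine oxidase that degrades histamine, at chr4:79142876-79143125 (plus strand, CDX core at -144 to -138). Proz and Aoc1 are outside the rule for named genes and were taken because of the match.
Krt20: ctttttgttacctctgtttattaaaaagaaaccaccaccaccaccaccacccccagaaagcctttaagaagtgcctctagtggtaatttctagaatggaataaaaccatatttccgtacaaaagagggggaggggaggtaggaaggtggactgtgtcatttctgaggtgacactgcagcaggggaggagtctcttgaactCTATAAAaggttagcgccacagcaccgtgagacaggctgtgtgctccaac
Retnlb: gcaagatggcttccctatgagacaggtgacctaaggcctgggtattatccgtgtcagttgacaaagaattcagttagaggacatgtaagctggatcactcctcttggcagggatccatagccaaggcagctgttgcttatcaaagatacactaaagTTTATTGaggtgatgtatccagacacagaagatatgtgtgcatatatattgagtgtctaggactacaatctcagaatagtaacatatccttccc
Aoc1: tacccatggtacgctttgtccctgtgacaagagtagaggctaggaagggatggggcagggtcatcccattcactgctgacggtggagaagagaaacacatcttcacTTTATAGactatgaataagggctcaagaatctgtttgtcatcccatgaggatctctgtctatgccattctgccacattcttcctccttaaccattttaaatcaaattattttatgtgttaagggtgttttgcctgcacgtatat

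Genes of each nephron segment were then followed list by list, in the order of the nephron. For each list the summed share of counts covers every matched member, while the counts of genes past the threshold cover the members that passed the low-count filter. A member can pass that filter through 1 tissue alone, so these counts describe the lists and carry no further weight. Each is to be set beside the shares over all tested genes, 32.6% higher in cortex and 33.9% in colon. Of 36 matched proximal tubule transporters, 32 were tested, 30 were higher in cortex and 2 in colon (median log2 difference 7.45, beside -0.02 over all 7398 genes). Their summed share was 1.99, 2.40, 2.72, 2.40 and 2.31% in the 5 cortex libraries and 0.0714, 0.0691, 0.106, 0.05 and 0.0578% in the 5 colon libraries. Slc34a1 ran from 3587 to 5152 CPM in cortex and from 0 to 23.0 in colon, a log2 difference of 8.82 (SE 0.37, adjusted p = 2.18e-13).

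Carriers of organic anions and urate were close to absent from colon. Slc22a6, the organic anion transporter OAT1, stood at 1232 ± 175 CPM in cortex and 2.04 ± 2.80 in colon (log2 difference 9.34). Slc22a8, its relative OAT3, stood at 1025 ± 204 CPM in cortex, and 2 colon counts gave a ratio of 1495-fold (95% counting interval 414 to 12353). Slc22a12, the urate transporter URAT1, stood at 860.4 ± 95.5 against 3.12 ± 2.48 CPM (log2 difference 8.05). Aqp1, the constitutive water channel of the proximal tubule, stood at 2487 ± 179 against 68.0 ± 20.1 CPM (log2 difference 5.20), and Lrp2, the endocytic receptor megalin, at 1641 ± 219 against 9.01 ± 7.54 CPM (log2 difference 7.50). The 2 members higher in colon, named after their values were seen, were the sodium hydrogen exchanger Slc9a3 (65.9 ± 11.2 CPM in cortex, 282 ± 218 in colon) and the butyrate and lactate carrier Slc5a8 (47.1 ± 5.17 and 128 ± 15.3).

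Proximal tubule enzymes and peptidases gave the largest summed share of the cell type lists in cortex, 5.88 to 6.78% against 0.286 to 0.384% in colon. Of 42 matched, 38 were tested, 34 were higher in cortex and 4 in colon (median 6.71). Acsm2, an acyl-CoA synthetase, stood at 1135, 1474, 1198, 1358 and 1307 CPM in cortex with 2 counts in colon, a ratio of 1950.2-fold (95% counting interval 539.6 to 16109). Acy1, an aminoacylase, stood at 3045 ± 463 against 58.8 ± 15.7 CPM (log2 difference 5.69), and Agmat, agmatinase, at 437 ± 55.4 against 3.73 ± 2.32 (log2 difference 6.69). Aldh8a1, a kynurenine pathway enzyme with 1 colon count, had a ratio of 1575-fold (95% counting interval 282 to 62242). The 4 members higher in colon, named after their values were seen, were Mep1a, Mep1b, Dpep1 and Akr1c14, of which the first 3 are peptidases, and Mep1a stood at 404 ± 75.9 CPM in cortex and 788 ± 79.2 in colon.

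Glomerular podocytes were represented by 16 matched genes, of which 11 were tested (median 1.70). Of these, 7 were higher in cortex, 2 were higher in colon and 2 did not pass, beside 32.6 and 33.9% of all tested genes. Col4a4, Podxl and Ptpro, named next, were among the 7. Col4a4, a collagen chain of the glomerular basement membrane, stood at 403, 299, 327, 373 and 385 CPM in cortex and 12.6, 18.7, 15.9, 2.59 and 9.85 in colon (log2 difference 4.96), and Podxl, podocalyxin, at 178 ± 55.4 against 9.19 ± 5.06 (log2 difference 4.26). Ptpro, a receptor phosphatase, was at a log2 difference of 2.45. The summed share was 0.106 to 0.127% in cortex and 0.0231 to 0.0306% in colon. Of 8 juxtaglomerular and mesangial genes 4 were tested, 3 higher in cortex and 1 in colon. That 1 was Des, desmin, a filament protein of muscle, at 12.6 ± 6.47 against 1592 ± 1058 CPM (log2 difference -6.86). The summed share of the list was 0.0130 to 0.0204% in cortex and 0.0457 to 0.279% in colon.

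In the thick ascending limb list 11 of 12 matched genes were tested, 10 were higher in cortex and none in colon (median 6.43, or 5.90 with genes at 0 set to their bounds). The share was 0.813, 0.628, 1.03, 0.837 and 0.642% in cortex and at most 0.0137% in colon. Slc12a1, the loop diuretic target NKCC2, stood at 403 ± 115 against 8.40 ± 5.18 CPM (log2 difference 5.59). Kcnj1, the potassium channel ROMK, stood at 201 ± 28.5 CPM in cortex with 1 colon count, a ratio of 581-fold (95% counting interval 104 to 22988), and Cldn10, a claudin of this segment, at 368 ± 73.3 CPM with 3 colon counts, a ratio of 361-fold (95% counting interval 123 to 1752). Slc12a1 and Cldn10 showed no overlap between the tissues.

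Distal convoluted and connecting tubule genes included members higher in each tissue. Of 15 matched genes, 9 were tested, 6 higher in cortex and 3 in colon, beside 32.6 and 33.9% of all tested genes. Slc12a3, the thiazide-sensitive cotransporter, stood at 46.6, 67.5, 83.7, 95.7 and 56.5 CPM in cortex and 1.80, 10.9, 5.29, 1.29 and 1.64 in colon (log2 difference 4.02, SE 0.40). Klk1, tissue kallikrein, stood at 2010 ± 587 against 291 ± 47.1 CPM (log2 difference 2.78), although near-identical kallikrein genes make its level uncertain. Tmem52b had a ratio of 975-fold (95% counting interval 175 to 38540.4) on 1 colon count, and Kl, the FGF23 co-receptor klotho, of 116-fold (95% counting interval 31.7 to 959.7) on 2. The largest difference towards colon was S100g, described with calcium handling below. The summed share was 0.267, 0.428, 0.357, 0.417 and 0.263% in cortex and 0.259, 0.542, 0.149, 1.04 and 0.499% in colon, so the groups overlapped.

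Principal cell genes of the collecting duct also included members higher in each tissue, while intercalated cell genes were one-sided. Of 13 principal cell genes 11 were tested, 8 higher in cortex and 3 in colon, beside 32.6 and 33.9% of all tested genes. Aqp2, the vasopressin-regulated water channel, stood at 625 ± 142 against 2.0 ± 1.83 CPM (log2 difference 8.13), Avpr2, the vasopressin receptor, at 46.3 ± 8.39 CPM with 0 colon counts (at least 44.4-fold), and St6gal1, a sialyltransferase, at 226 ± 43.6 against 9.85 ± 5.98 (log2 difference 4.58). The 3 members higher in colon were Aqp3, Scnn1a and Fxyd4, and the summed share was 0.185, 0.149, 0.204, 0.178 and 0.160% in cortex and 0.184, 0.415, 0.275, 0.408 and 0.343% in colon. Of 15 intercalated cell genes 13 were tested and all 13 were higher in cortex (median 6.10, or 6.06 with bounds). Proton pump subunits led. Atp6v0a4 stood at 450.3 ± 49.2 CPM with 3 colon counts, a ratio of 442-fold (95% counting interval 151 to 2145). Atp6v1g3 stood at 303 ± 43.1 CPM with 3 colon counts, a ratio of 305-fold (95% counting interval 104 to 1479), and Atp6v1b1 at 146 ± 13.4 against 2.13 ± 2.56 CPM (log2 difference 6.04). Rhcg, an ammonia channel, had a ratio of 269.5-fold (95% counting interval 74.3 to 2230.4).

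**Figure D3:**
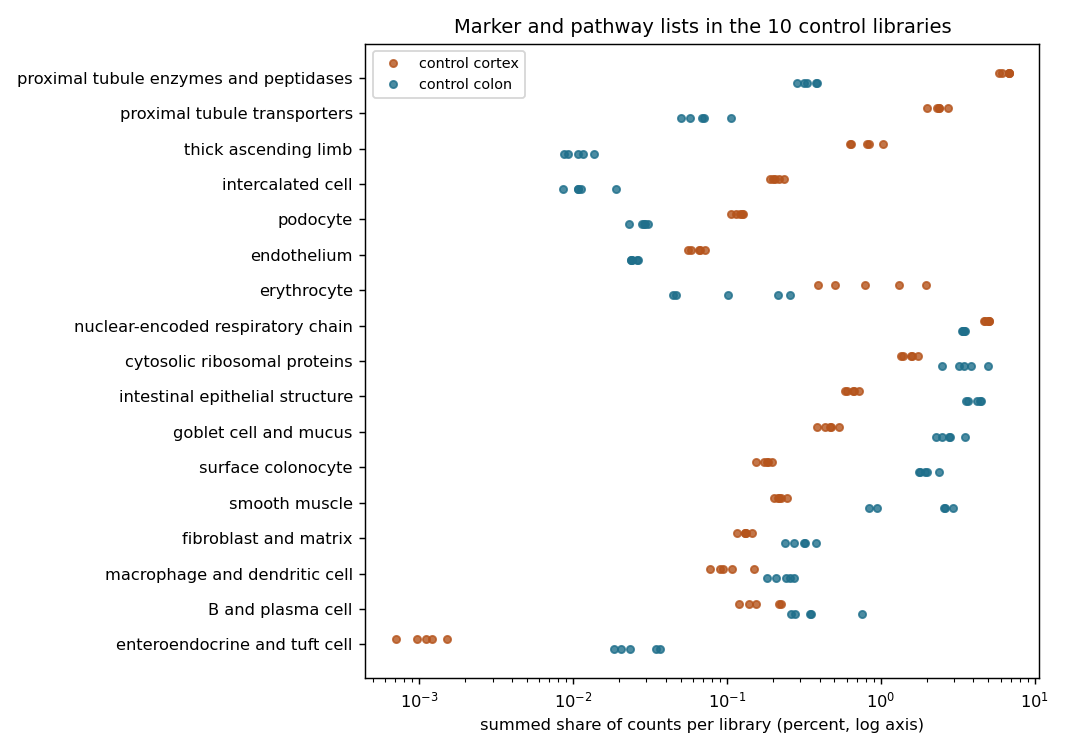
Summed share of library counts (percent, log axis) held by 17 marker and pathway lists; each orange point is 1 of 5 control cortex libraries and each blue point 1 of 5 control colon libraries. Tubule lists lie to the right in cortex and mucus, epithelial and smooth muscle lists in colon, and the smooth muscle share of 2 colon libraries (0.941 and 0.844%) lies apart from the other 3 (2.58 to 2.95%).

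Goblet cell and mucus genes ran the other way. All 14 tested of 18 matched were higher in colon (median -8.98, or -8.21 with bounds). The share was 3.54, 2.77, 2.27, 2.51 and 2.80% in the colon libraries and 0.468, 0.436, 0.538, 0.478 and 0.386% in the cortex libraries, where Tff3 alone held 0.460%. Zg16 ran from 2197 to 8065 CPM in colon. Fcgbp, a mucus protein that binds mucins, stood at 2665 ± 1074 CPM in colon and 6.05 ± 4.39 in cortex (log2 difference -8.78, SE 0.39, adjusted p = 3.89e-13). Muc13, with 0 counts in cortex, was at least 1074-fold higher in colon.

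Of 23 surface colonocyte genes, all tested, 17 were higher in colon and 4 in cortex (median -2.68). Aqp8, a water channel of the colonic surface, stood at 1353, 1346, 1241, 1498 and 1445 CPM in colon and 4.37, 1.75, 0, 0 and 3.42 in cortex, with a log2 difference of -9.27 (SE 0.28, adjusted p = 1.05e-14). The 4 members higher in cortex included both Scnn1b and Scnn1g, channel subunits that collecting duct and distal colon share. The other two, named after their values were seen, were Abcg2, an efflux pump for urate and drugs (286 ± 53.4 CPM in cortex, 179 ± 51.1 in colon), and Slc51b, a subunit of a bile acid exporter (52.6 ± 15.5 and 21.8 ± 9.95). Both calls were lost in the fit of all 31 libraries (adjusted p = 0.0549 and 0.206, edgeR).

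Among 27 tested genes of intestinal epithelial structure, 25 were higher in colon and 1 in cortex (median -4.69). Lgals4, a galectin of the enterocyte membrane, stood at 3318 ± 239.8 CPM with 2 cortex counts, a ratio of 5737-fold (95% counting interval 1588 to 47378). Lgals3, another galectin, stood at 3998 ± 688 against 28.0 ± 6.21 CPM (log2 difference -7.16), Tspan1 at a log2 difference of -7.08 and Krt19 at 1438 ± 156 against 17.7 ± 4.75 CPM (log2 difference -6.33). Ush1c, a scaffold of the brush border, was the member higher in cortex, at 275 ± 45.3 against 186 ± 38.3 CPM (log2 difference 0.55), and was named after its value was seen. Gut hormone genes were low. Pyy, peptide YY, stood at 45.4 ± 32 CPM, Chgb, a granin, at 35.8 ± 11.3 and Cck, cholecystokinin, at 31.5 ± 10.6, all with 0 cortex counts and bounds of at least 48.9-, 38.8- and 34.9-fold. Those 3 were the tested members of 17 matched enteroendocrine and tuft cell genes.

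Colon libraries carried much more smooth muscle RNA, and unequally. All 22 tested of 28 matched smooth muscle genes were higher in colon (median -4.11). Their summed share was 0.941, 2.60, 2.95, 0.844 and 2.58% in colon replicates 1 to 5 and 0.201 to 0.244% in cortex. Actg2, the enteric smooth muscle actin, stood at 742, 3621, 4809.7, 700.3 and 3958 CPM in colon and 1.46, 0.876, 5.58, 0 and 1.71 in cortex (log2 difference -10.47, SE 0.75, adjusted p = 4.10e-10). Tagln, Tpm2 and Myl9, an actin-binding protein, a tropomyosin and a myosin light chain, were at log2 differences of -5.71, -6.01 and -4.62. Colon replicates 1 and 4 were low for each of Actg2, Tagln, Tpm2 and Myl9. Without those 2 libraries, 25 of 26 tested genes of the list were higher in colon and the median was -4.57.

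Connective tissue and immune genes were mostly higher in colon. Of 19 tested fibroblast and matrix genes (26 matched), 12 were higher in colon and 4 in cortex (median -2.87). Col3a1, type III collagen, stood at 344 ± 55.4 against 17.7 ± 5.06 CPM (log2 difference -4.28). Adamdec1, a metalloprotease of gut fibroblasts and macrophages, had a ratio of 1406-fold (95% counting interval 252 to 55591) on 1 cortex count, and Lum and Postn, matrix proteins, had ratios of 339.7-fold (95% counting interval 93.6 to 2811) and 389-fold (95% counting interval 69.3 to 15390.5). Of 12 tested macrophage and dendritic genes 9 were higher in colon and none in cortex. The complement gene C1qb stood at 224 ± 78.0 against 32.7 ± 7.21 CPM (log2 difference -2.77), Ctss, a lysosomal protease, at 473 ± 93.7 against 51.1 ± 12.2 (log2 difference -3.22) and Cd14 at 182 ± 77.5 against 9.85 ± 4.57 (log2 difference -4.27). Mcpt1, a mucosal mast cell protease, had 1 cortex count and a ratio of 822-fold (95% counting interval 147 to 32527).

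B and plasma cell genes were uneven among the colon libraries. Ighm, the heavy chain of IgM, stood at 2446, 1101, 842, 1901 and 2173 CPM in colon and 42.2, 19.3, 39.1, 14.2 and 42.8 in cortex (log2 difference -5.76, SE 0.34, adjusted p = 2.47e-11). Jchain, which links polymeric antibodies, had 2 cortex counts and a ratio of 193-fold (95% counting interval 52.9 to 1596). The summed share of the 15 matched genes was 0.750, 0.276, 0.260, 0.352 and 0.349% in colon. Replicate 1 was highest there and also for Cd79b, part of the B cell receptor, which stood at 219, 6.22, 50.3, 25.9 and 4.93 CPM in colon replicates 1 to 5. The T and NK cell list was highest in replicate 1 as well, at 0.0459% of counts beside 0.0144 to 0.028% in the other colon libraries. Cd74, the invariant chain of class II molecules, did not pass, at 1639 ± 521 CPM in cortex and 1811 ± 1359.7 in colon (log2 difference -0.14, 95% interval -0.83 to 0.54, adjusted p = 0.711). Its level in colon was 4233, 1342, 1324, 1111 and 1048 CPM, and without replicate 1, the highest, the log2 difference turned to 0.45 (adjusted p = 0.0565, edgeR). Cd79b, not tested, was named after its values were seen.

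Endothelial and red cell genes were higher in cortex. Of 12 tested endothelial genes (16 matched), 10 were higher in cortex and 1 in colon (median 1.98). Vwf, von Willebrand factor, stood at 96.7 ± 27.8 against 3.96 ± 3.08 CPM (log2 difference 4.53), Emcn, endomucin, at 59.1 ± 11.9 against 12.4 ± 5.23 (log2 difference 2.29) and Plvap, the diaphragm protein of fenestrated capillaries, at 153 ± 36.5 against 39.8 ± 7.99 (log2 difference 1.92). Lyve1, of lymphatic endothelium, was the 1 higher in colon, at 53.1 ± 9.20 against 4.13 ± 3.51 CPM (log2 difference -3.65). Haemoglobin transcripts made up 0.980 ± 0.650% of cortex counts and 0.132 ± 0.0971% of colon counts (n = 5 each, adjusted p = 0.0238, exact permutation). All 6 tested red cell genes were higher in cortex. These include Slc4a1, which intercalated cells also express, with a ratio of 71.9-fold (95% counting interval 24.3 to 351). Haemoglobin genes are near copies of each other, so their separate levels are uncertain, and the part of blood in other differences was not tested.

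**Figure D4:**
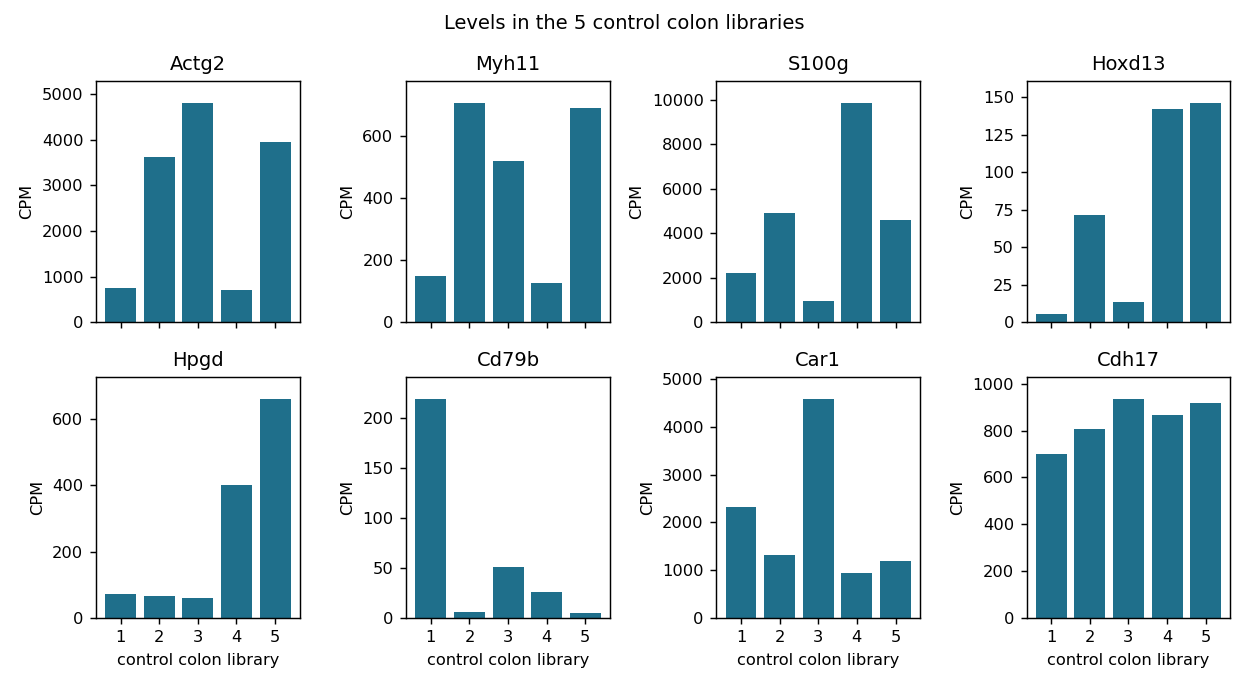
Levels (CPM, linear axes from 0) of 8 genes in the 5 control colon libraries, 1 bar per library. Actg2 and Myh11, smooth muscle genes, are low in libraries 1 and 4, Cd79b is highest in library 1, Hpgd is high in libraries 4 and 5, Hoxd13 is low in libraries 1 and 3, and Cdh17 is even throughout.

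Colon libraries also differed in genes outside the smooth muscle list. Hoxd13, the most posterior gene of its cluster, stood at 5.39, 71.6, 13.2, 142 and 146 CPM, had 0 cortex counts and was too low in some libraries for the test. Car1 was highest in replicate 3 and S100g in replicate 4. The position of each sample along the colon is not given in the sources used here, and its part in these differences was not tested. Cdh17 stood at 701, 809, 937, 866 and 916 CPM, with no library apart. Over genes of at least 50 CPM, the median SD of log2 levels between libraries was 0.223 in cortex (3530 genes) and 0.273 in colon (3574 genes). Hoxd13 was named after its values were seen.

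Transcription factors of each lineage were mostly higher in their own tissue. Cdx2, the master factor of intestinal identity, stood at 280.4, 166, 188, 111 and 194 CPM in colon with 1 cortex count, a ratio of 626-fold (95% counting interval 112 to 24763). Klf5 and Klf4, factors of proliferating and differentiated gut epithelium, stood at 261 ± 31.3 and 337 ± 71.8 CPM against 2.02 ± 1.31 and 2.67 ± 2.20 (log2 differences -6.88 and -6.90), and Elf3, an epithelial ETS factor, at 999 ± 220.0 against 74.6 ± 11.7 (log2 difference -3.73). Of 14 tested colon lineage factors 13 were higher in colon and 1 in cortex. Pax8, a nephron lineage factor, stood at 129.6, 119, 125, 128 and 128 CPM in cortex and 3.59, 7.78, 7.94, 5.18 and 4.93 in colon (log2 difference 4.40, SE 0.22, adjusted p = 2.37e-12), and Emx1 had a ratio of 76.1-fold (95% counting interval 20.8 to 633) on 2 colon counts. Esrrg, a nuclear receptor of oxidative metabolism, was higher in cortex by 1.18 on the log2 scale. Of 20 matched kidney lineage factors only 7 passed the filter, 5 of them higher in cortex and 1 in colon.

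The nuclear receptor Hnf4a was found in both tissues. It stood at 377, 389, 421, 462 and 341 CPM in cortex and 424, 439, 474, 563 and 595 in colon. Those groups overlapped, and the log2 difference of -0.33 (SE 0.14) had an adjusted p of 0.0407 by edgeR. It missed the threshold with DESeq2 size factors in edgeR (adjusted p = 0.0562). The same held without cortex replicate 1, 2, 3 or 5 or without colon replicate 4 or 5, with adjusted p from 0.0734 to 0.154 by edgeR. Hnf4g was too low for the test, at 1.75 to 16.7 CPM in cortex and 0 to 3.28 in colon.

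Hox genes differed in both directions. Hoxb13 stood at 392, 695, 413, 1006 and 521 CPM in colon with 0 cortex counts (at least 743-fold), whereas Hoxb7 stood at 74.2, 67.5, 74.4, 50.9 and 70.2 CPM in cortex and 0, 4.67, 5.29, 10.4 and 4.93 in colon (log2 difference 3.61, adjusted p = 2.55e-08). Hoxd4 and Hoxd9 were also higher in cortex, at 26.5 ± 5.74 against 1.19 ± 2.02 CPM (log2 difference 4.10) and 38.8 ± 11.1 against 3.30 ± 3.82 (log2 difference 3.29). Of 37 matched Hox genes 26 were counted and 5 tested, 4 higher in cortex and 1 in colon. Over all tested genes the shares were 32.6 and 33.9%, and nothing is read from these small counts. The fifth tested gene, Hoxd10, was at a log2 difference of 1.25 and was named after its value was seen. Its call was lost with scaling by library totals alone (edgeR adjusted p = 0.0588). It was also lost without cortex replicate 1, 2 or 3 or colon replicate 1, 2 or 3, with adjusted p from 0.0576 to 0.138 by edgeR.

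Members of some pairs of related genes sat on opposite sides. The pairs were chosen with earlier results of these data known, so how many did so carries no weight. In one subfamily of cadherins, Cdh16, kidney-specific cadherin, stood at 666 ± 71.7 CPM in cortex and 1.62 ± 1.91 in colon (log2 difference 8.46), and Cdh17 had 0 cortex counts and a bound of at least 966-fold. Among sodium pump regulators, Fxyd2 stood at 3248, 2708, 2248, 2758 and 3667 CPM in cortex and 46.7, 107, 47.6, 67.3 and 67.3 in colon (log2 difference 5.42, SE 0.23), Fxyd3 at 45.1 ± 10.02 CPM in colon with 0 in cortex, and Fxyd4, the corticosteroid-induced subunit CHIF, at 483, 2938, 903, 2993 and 2184 in colon and 42.2, 34.2, 42.8, 30.5 and 49.6 in cortex (log2 difference -5.58, SE 0.44). Atp12a, the colonic proton potassium pump, was at a log2 difference of -7.88 (SE 0.56). Slc26a4, pendrin of intercalated cells, had 2 colon counts and a ratio of 155-fold (95% counting interval 42.6 to 1286), and its relative Slc26a3 had 0 cortex counts.

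**Figure D5:**
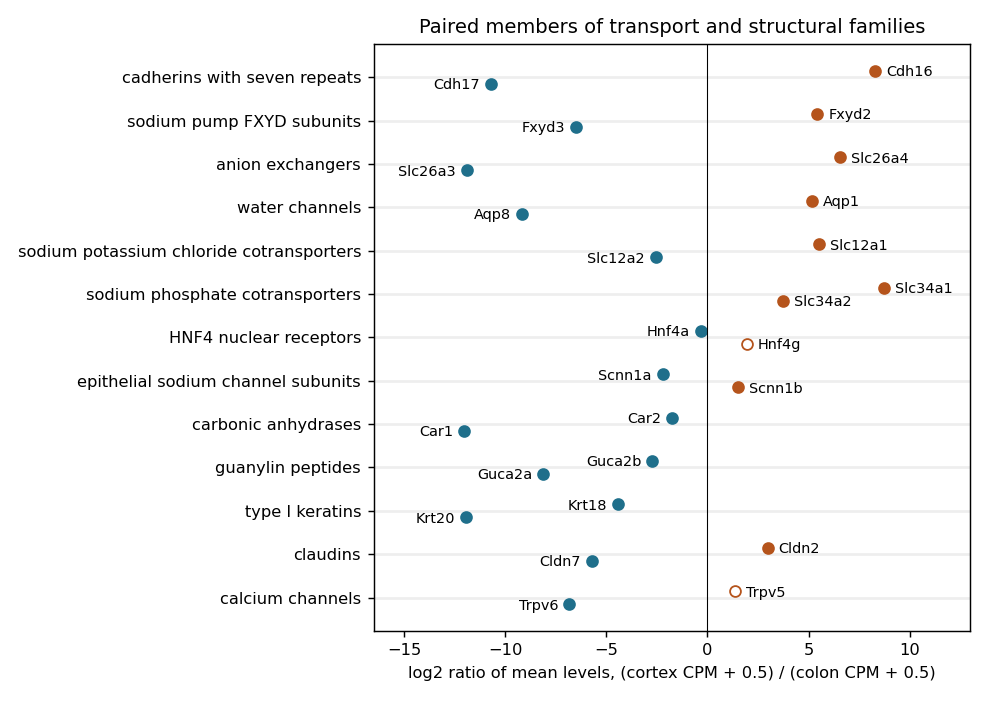
Log2 ratio of mean levels, (cortex CPM + 0.5) over (colon CPM + 0.5), for 13 pairs of related genes; points right of 0 are higher in cortex and points left of 0 higher in colon, filled points passed the edgeR threshold and open points (Hnf4g and Trpv5) were not tested. In 9 pairs the members lie on opposite sides of 0. The pairs were chosen with earlier results known, so that number carries no weight.

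Chloride cotransporters, water channels and claudins also had members on each side. Slc12a1 was at a log2 difference of 5.59 and Slc12a2, the secretory cotransporter NKCC1, at a log2 difference of -2.59 (SE 0.29), with 20.3 ± 6.35 CPM in cortex and 121 ± 47.9 in colon. Of 7 tested aquaporins 5 were higher in cortex and 2 in colon. Aqp7, a channel for water and glycerol, was at a log2 difference of 4.16 (259 ± 37.8 against 14.5 ± 4.92 CPM), and Aqp3, on the basolateral side of principal cells and colonocytes, at a log2 difference of -2.06 (200.2 ± 18.9 against 839 ± 281 CPM). Of 11 tested claudins 4 were higher in cortex and 6 in colon. Over all tested genes 32.6% were higher in cortex and 33.9% in colon, and nothing is read from these small counts. Cldn2, a cation-permeable claudin, was at a log2 difference of 3.06, and Cldn3, Cldn7 and Cldn23, sealing or surface claudins, at log2 differences of -5.15, -5.81 and -7.27.

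In other pairs both genes were on one side. Slc34a1 and Slc34a2, sodium phosphate cotransporters, were higher in cortex, Slc34a1 at a log2 difference of 8.82 and Slc34a2 at a log2 difference of 4.05 (43.4 ± 14.3 against 2.75 ± 3.05 CPM). The third member, Slc34a3, had 2 colon counts and a ratio of 277-fold (95% counting interval 76.4 to 2294). Car2 was at a log2 difference of -1.75 with 712 ± 47.5 CPM in cortex and 2399 ± 1103 in colon, and Car1 had 0 cortex counts. Another carbonic anhydrase, Ca12, a member of the intercalated cell list, was higher in cortex, at 565 ± 67.6 against 99.7 ± 35.1 CPM (log2 difference 2.53). Guca2b, uroguanylin, was at a log2 difference of -2.82 with 25.9 ± 8.31 against 175 ± 121 CPM, smaller in size than Guca2a at a log2 difference of -8.13, although the difference between the 2 genes was not tested. Krt18 was at a log2 difference of -4.54 and Krt20 had 0 cortex counts. Slc34a3 was named after its values were seen.

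Subunits of the epithelial sodium channel were not all on one side. Scnn1a, the alpha subunit of the epithelial sodium channel, stood at 164, 229, 169, 252 and 253 CPM in colon and 16.0, 56.1, 70.7, 55.0 and 29.1 in cortex (log2 difference -2.24, SE 0.26, adjusted p = 4.07e-07). Scnn1b, the beta subunit, stood at 71.3, 87.6, 67.0, 83.5 and 47.9 CPM in cortex and 16.2, 37.3, 18.5, 23.3 and 27.9 in colon (log2 difference 1.51, SE 0.24, adjusted p = 1.98e-05). Scnn1g, the gamma subunit, was on the side of Scnn1b, at 48.5 ± 10.1 against 6.88 ± 5.12 CPM (log2 difference 2.73), and was named after its value was seen. Hsd11b1, which regenerates active glucocorticoid, stood at 1260.5 ± 77.1 CPM in cortex and 48.6 ± 15.4 in colon (log2 difference 4.67). Agt, angiotensinogen, stood at 66.7 ± 10.9 against 4.11 ± 3.61 CPM (log2 difference 3.96) and its receptor Agtr1a at 59.0 ± 16.8 against 14.4 ± 4.61 (log2 difference 2.06). Over the list of steroid-regulated salt transport, with 27 tested genes, 12 were higher in cortex and 13 in colon, beside 32.6 and 33.9% of all tested genes.

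Calcium, phosphate and vitamin D genes showed different partners in each tissue. Vdr, the vitamin D receptor, was present in both, at 93.2, 104, 143, 134 and 82.1 CPM in cortex and 282, 305, 270.0, 625 and 269 in colon, and was higher in colon (log2 difference -1.67, SE 0.23, adjusted p = 4.07e-06). Its target Cyp24a1, the enzyme that inactivates calcitriol, stood at 69.9, 66.6, 54.0, 97.7 and 70.2 CPM in cortex with 2 colon counts, a ratio of 104-fold (95% counting interval 28.5 to 864). Cyp27b1, which makes calcitriol, had 3 counts in cortex and 0 in colon, too few for a fold.

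Among calcium channels and carriers, Trpv6 and both calbindins differed between the tissues. Trpv6, the intestinal calcium channel, stood at 137, 152, 204, 101 and 122 CPM in colon with 3 cortex counts, a ratio of 156-fold (95% counting interval 53.1 to 761). Trpv5, its renal relative, was too low for the test, at 1.46, 6.13, 1.86, 6.11 and 3.42 CPM in cortex and 0, 3.11, 2.65, 0 and 0 in colon. Calb1, calbindin-D28k, stood at 560.5, 709.8, 506, 601 and 499.7 CPM in cortex and 1.80, 0, 2.65, 2.59 and 4.93 in colon (log2 difference 7.81, SE 0.28, adjusted p = 3.83e-14). S100g, calbindin-D9k, stood at 2225, 4933, 958, 9861 and 4592 CPM in colon and 0, 5.26, 5.58, 20.4 and 13.7 in cortex (log2 difference -9.10, SE 0.67, adjusted p = 5.94e-10). Neither calbindin showed overlap between tissues. Pth1r, the parathyroid hormone receptor, stood at 635 ± 90.7 against 5.8 ± 3.96 CPM (log2 difference 6.59). Of 18 tested genes of this list 12 were higher in cortex and 5 in colon, beside 32.6 and 33.9% of all tested genes.

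Mitochondrial genes encoded in the nucleus leaned to cortex by small amounts. Of 51 tested respiratory chain genes 36 were higher in cortex and 2 in colon (median 0.58). Their share was 5.04, 4.98, 4.66, 4.72 and 5.07% in cortex and 3.44, 3.47, 3.50, 3.35 and 3.41% in colon, with no overlap. Ndufa4, a complex IV subunit, stood at 1580.3 ± 247 against 313 ± 52.3 CPM (log2 difference 2.34), and the ATP synthase subunits Atp5po and Atp5f1a were at log2 differences of 1.53 and 1.35. Of 19 tested genes of fatty acid oxidation 10 were higher in cortex, 1 in colon and 8 did not pass (median 0.38). Over all tested genes 32.6% were higher in cortex and 33.9% in colon. Against a fold of 2 (glmTreat), 3 of the 19 were higher in cortex and 0 in colon. The peroxisomal thiolase Acaa1a was at a log2 difference of 2.34, Eci1, an enoyl-CoA isomerase, at a log2 difference of 2.38, and Acadvl at a log2 difference of 1.18. All 13 mitochondrially encoded genes had 0 counts in the 10 libraries and cannot be compared.

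Glycolytic genes included members higher in each tissue. Of 16 tested, 7 were higher in cortex and 6 in colon (median 0.10), beside 32.6 and 33.9% of all tested genes, and nothing is read from these counts. Ldhb, the heart-type lactate dehydrogenase subunit, stood at 1808, 1724, 1516, 1742 and 1719.7 CPM in cortex and 37.7, 40.4, 58.2, 22.0 and 44.3 in colon (log2 difference 5.43, SE 0.20, adjusted p = 6.05e-14). Ldha, the muscle-type subunit, stood at 1141, 1143, 1162, 1061 and 1017 CPM in colon and 297, 258, 229, 228 and 236 in cortex (log2 difference -2.14, SE 0.13, adjusted p = 3.42e-11). Pkm, pyruvate kinase, and Eno3, the muscle enolase, were higher in colon, at log2 differences of -1.98 and -5.94. Eno3 stood at 191, 331, 185, 447 and 432 CPM in colon and 8.73, 1.75, 9.30, 6.11 and 1.71 in cortex, with no overlap.

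Ribosomal protein genes were higher in colon nearly without exception. Of 60 tested (72 matched), 59 were higher in colon, 1 did not pass and none was higher in cortex (median -1.21). With DESeq2 size factors in edgeR the count was 58, and with library totals alone 59. Rps15a stood at 173 ± 37.9 against 649 ± 198 CPM (log2 difference -1.89), and Rpl31, Rps23 and Rpl27a were at log2 differences of -1.87, -1.64 and -1.55. The summed share was 1.74, 1.58, 1.35, 1.40 and 1.6% in cortex and 4.95, 3.21, 3.48, 2.51 and 3.84% in colon. Ribosomal protein genes have many processed copies, so counts of single members are uncertain. Of 24 matched crypt and proliferation genes 4 passed the filter. Pcna and Hmgb2 were higher in colon (log2 differences -0.62 and -3.21), and Sox9 and Stmn1 in cortex (log2 differences 0.72 and 1.11). The call for Sox9 was lost without cortex replicate 3 or 4 or colon replicate 2 or 3, with adjusted p from 0.0534 to 0.0843 by edgeR. Without the filter all 24 were tested, 16 were higher in colon and 2 in cortex (median -2.04). In the fit of all 31 libraries 19 were tested, 14 higher in colon and 2 in cortex. The summed share was 0.0254, 0.0233, 0.0338, 0.0286 and 0.0316% in cortex and 0.0690, 0.0411, 0.0514, 0.0331 and 0.0385% in colon.

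The tissue labels were checked against markers of neighbouring tissues. In colon, genes of small intestine were low apart from Apoa1, which ran from 55.8 to 647 CPM, with 0 cortex counts. Of 17 matched small intestine genes 7 were tested, 3 higher in cortex and 1 in colon, beside 32.6 and 33.9% of all tested genes. Mgam, Anpep and Apoc3 were the members higher in cortex, at log2 differences of 2.86, 5.37 and 2.55. The count depended on the filter. Without it 16 were tested, 4 higher in cortex and 5 in colon. In the fit of all 31 libraries 11 were tested, 3 higher in cortex and 5 in colon. Of Paneth cell markers, Pla2g2a (141 ± 52.7 CPM) and Itln1 were higher in colon, but the antimicrobial genes Defa6 and Reg3a were at 0.858 and 0.311 CPM. In cortex, Slc14a2, the urea transporter of the inner medulla, stood at 2.04 CPM. Of 13 matched medulla genes 6 were tested, 2 higher in cortex and 3 in colon, beside 32.6 and 33.9% of all tested genes. The summed share of the 13 was 0.108 to 0.155% in cortex and 0.187 to 0.402% in colon. Aqp2, Aqp3 and Fxyd4 are also in the principal cell list, so the medulla list cannot separate medulla from cortical collecting duct. The summed share of 7 adrenal genes was at most 5.31e-04% in cortex, the pancreatic list held 0.0177 to 0.0335%, nearly all Cela1 (303 ± 70.8 CPM), and albumin (Alb) had 0 cortex counts. Fat cell genes held 0.0103 to 0.0212% in cortex and 0.00897 to 0.0481% in colon. Defa6, Reg3a, Slc14a2 and Alb were named after their values were seen.

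Some well-expressed genes differed little. The 5 genes of at least 8 in mean log2 CPM with the smallest fitted difference were Ezr, the microvillus linker ezrin, Ndufb4, a complex I subunit, Gde1, a phosphodiesterase, Nedd8, a ubiquitin-like modifier, and Rpn1, a subunit of oligosaccharyltransferase. Ezr stood at 588, 657, 579, 627 and 590.4 CPM in cortex and 530.2, 577, 540.0, 751 and 616 in colon, with a log2 difference of 0.01 and a 95% interval of -0.26 to 0.28. The intervals were -0.27 to 0.25 for Ndufb4, -0.27 to 0.24 for Gde1, -0.26 to 0.30 for Nedd8 and -0.29 to 0.33 for Rpn1. They were chosen for their small differences, so these values are a description.

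The tissue difference recurred in libraries that the control comparison did not use. In HS libraries 6779 genes were tested and 47.2% passed in either direction, and in CAL libraries 6975 and 63.4%. Of the 2415 genes higher in control cortex, 2179 were tested in HS libraries and 1386 of these passed in the same direction (63.6%), with 2055 of the same sign. In CAL libraries 2270 were tested and 1966 passed in the same direction (86.6%). Of the 2506 genes higher in control colon, 1459 of 2272 (64.2%) passed in HS and 1929 of 2299 (83.9%) in CAL libraries. None passed in the opposite direction in either set. Leaving out single libraries moved the sum of both directions in HS, 2845, to between 2481 and 2899, the last without HS colon replicate 3, and that in CAL, 3895, to between 3856 and 3967. For Gpx3 the log2 difference was 6.37 in HS and 6.34 in CAL, and for Lypd8 it was -12.43 and -12.92. For Calb1 it was 9.88 and 7.28, for S100g -6.54 and -7.42, for Scnn1a -2.11 and -2.30 and for Scnn1b 1.88 and 1.65.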

How the data were processed

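RNA from rat kidney cortex and colon was sequenced on a NextSeq 500 from tagmentation libraries, per the labels' protocols. The authors deposited read counts per gene, which carry no normalization. Per the submitters' processing notes, reads passed FastQC 0.11.9, Trimmomatic 0.39, HISAT2 2.1.0 and featureCounts 1.6.5 with Rnor_6.0. The annotation and the strand setting are not given in the sources used here, so reads of overlapping and antisense genes cannot be told apart.

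Samples were grouped by title. Of 20207 genes listed, 3679 had 0 counts in the 10 control libraries. Genes with too few counts were removed with filterByExpr (minimum count 10, minimum total 15), counts were scaled by TMM, and tissues were compared by the quasi-likelihood test of edgeR 4.0.16 in R 4.3.3, with p-values adjusted over all genes tested. DESeq2 1.42.0 and limma 3.58.1 served as alternatives. Intervals and limits of 3 counts cover counting error only, and 3 counts are 2.42 to 5.84 CPM in a cortex library and 3.93 to 8.00 CPM in a colon library. In simulated counts for 7398 genes, 100 were changed by 1 and 100 by 2 on the log2 scale, and 7198 were unchanged. The test recovered 72.0% of the genes changed by 1 and 99.0% of those changed by 2. Since 66.5% of genes passed in the real data, these are not recovery rates for the tissue comparison. Of 884 list entries 843 matched a gene.

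Members and lists were chosen with earlier results of these data known. Named genes were the 15 with most counts per tissue, the 15 highest counted in 1 tissue alone, the 10 largest changes each way, up to 4 members of each list by p and its highest member, 15 pairs of relatives (13 shown), 5 genes of smallest change and 7 genes of salt and vitamin D biology. Symbols beginning LOC, RGD, AABR or AC were left out, and some genes under this rule and a motif that was searched are not reported here. Promoter sequences are from RefSeq, assembly GRCr8, and no coordinates of Rnor_6.0 are given.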

Additional observations from a re-analysis of the deposited data

Results flagged for a closer look

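In 309 groups of 5 libraries, 16 had a highest or lowest library far from the other four by Dixon's test, and chance alone would give about 15.4, or 1 in 20.

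In colon, replicate 1 stood apart for 4 genes. Cd74 was at 4230.0 CPM beside 1050.0 to 1340.0 in the others, Cd79b at 219 beside 4.93 to 50.3, Ptprcap at 189 beside 9.85 to 47.6 and Retnlb at 2140.0 beside 411 to 672. The first 3 are genes of lymphoid and antigen-presenting cells. In replicate 3, Jchain was at 23.8 CPM beside 109 to 138, and Atp5f1b at 4130.0 beside 3250.0 to 3510.0. In replicate 4, Vdr was at 625 CPM beside 269 to 305, and in replicate 5, Krt20 was at 2640.0 beside 1700.0 to 1940.0.

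In cortex, replicate 1 was high for Emcn, at 80.1 CPM beside 50.9 to 56.5, and for Myl9, at 118 beside 59.6 to 73.6. Replicate 2 was low for Cldn3, at 33.3 CPM beside 52.1 to 58.2, and for Krt18, at 5.26 beside 14.2 to 17.5. It was high for Scgb1a1, at 60.5 CPM beside 0 to 1.86. Replicate 3 was high for Glul, at 5460.0 CPM beside 4030.0 to 4430.0, and for Mep1a, at 538 beside 354 to 390.0, and low for Rps23, at 143 beside 193 to 211.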

How the results depend on the processing

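Most counts of calls moved little. Leaving out 1 control library gave 2378 to 2502 genes higher in cortex and 2474 to 2554 higher in colon, beside 2415 and 2506, and leaving out colon replicates 1 and 4 together gave 2423 and 2522. Testing against a fold of 2 (glmTreat) lowered the counts to 1163 and 1176, and without the filter on low counts, with 16528 genes tested, they were 3212 and 3801. Of the 2415 and 2506 genes, 2386 and 2374 were called by DESeq2 and 1865 of 2024 and 1951 of 2114 still tested were called after thinning all libraries to the shallowest. Scaling by library totals alone moved the median log2 difference from -0.02 to -0.10 and gave 2217 and 2683.

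The share held by the 10 most abundant genes differed by 0.9876 to 1.56 percentage points when 1 library was left out, and by 0.952 with 100 genes, and its adjusted p was 0.0635 in 6 of those 10 fits and 0.151 with 100 genes (exact permutation). The differences in genes detected and in haemoglobin share stayed past the threshold in every alternative run for them.

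Of 202 tested genes named in the text, 196 passed the threshold, and 181 of these kept sign and call in every alternative that tested them, out of 23. The 6 that did not pass gained no call but each changed sign in some alternatives. No called gene changed sign, and 43 of 4636 values lost the call, most for Hnf4a, Hoxd10 and Sox9 or when testing against a fold of 2.

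With the replicate number as a block, 2415 genes were higher in cortex and 2497 in colon, and 2631 and 3905 passed in the same direction in HS and CAL libraries, beside 2845 and 3895. The call for Hoxd10 was lost under that block (adjusted p = 0.0616, edgeR). Deviations of same-numbered cortex and colon libraries correlated by 0.174, -0.00118, 0.0733, 0.222 and 0.0255 over 2773 genes. The values for numbers 1 and 4 were the largest of all, beside at most 0.0895 between different numbers. Not every pair was above 0.1, and not every library correlated best with its own number. The numbers were therefore not taken to pair the samples, but whether some do is not known.

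With the filter on low counts, 4 of 24 proliferation genes and 5 of 37 Hox genes were tested.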

Other observations

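Some genes varied widely between libraries of 1 tissue. They were picked from the genes with the largest SD of log2 level among those of at least 50 CPM, after their values were seen. In cortex, Inmt, an amine methyltransferase, stood at 519.7, 51.7, 74.4, 627 and 269 CPM in replicates 1 to 5, and Cyp2d2, a drug-metabolising enzyme with close relatives that make its level uncertain, at 83.0, 92.0, 59.5, 419 and 234. Gp2, a relative of uromodulin, stood at 323, 156, 251, 24.4 and 189.9 CPM, and Rbp4, the plasma carrier of retinol, at 293, 78.9, 100.5, 38.7 and 205. Replicate 4 was lowest for Gp2 and Rbp4 and highest for Inmt and Cyp2d2.

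In colon, Scgb1a1, a secretoglobin, stood at 12.6, 215, 29.1, 579.9 and 296 CPM, Hpgd, which inactivates prostaglandins, at 71.9, 65.3, 58.2, 401 and 662 and Aldh1a1, which makes retinoic acid, at 23.4, 119.8, 52.9, 428 and 296. Replicates 4 and 5 were high for Hpgd and Aldh1a1, the same libraries that were high for Hoxd13. Ptprcap, a lymphocyte protein, stood at 189, 14, 47.6, 23.3 and 9.85 CPM and was highest in replicate 1, as Cd79b was. Fam111a stood at 169, 9.33, 2.65, 1.29 and 96.9 CPM, with replicates 1 and 5 apart from the other three.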
